A study of Mus musculus with 40 samples.

Results

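The 9 complement genes of the mouse liver described here are C3, Cfb, Cfi, Hc, C6, C8a, C8b, C8g and C9. They were taken by name from the table of probe counts, where they are 9 of 21448 gene symbols and 18 of 30146 probes. All 9 genes and all 18 probes had enough reads to be tested. C6, C8g and Cfi have 1 probe each, C8a, C8b, Cfb and Hc have 2, C3 has 3 and C9 has 4, and the probe with the most reads stands for each gene unless another is named.

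The mice were wild-type, outbred Crl:CD1(ICR) males and females, housed individually, that received GenX by oral gavage for 90 days. GenX is a trade name for a fluorinated ether acid salt used in place of longer-chain perfluoroalkyl substances. The doses in each sex were 0.1, 0.5 and 5 mg/kg of body weight a day, and control mice received deionized water. Each of the 8 groups held 5 mice, of which 39 were used, and each mouse gave a single library made from a formalin-fixed, paraffin-embedded liver section. The ages of the mice are not given in the labels.

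Complement is a cascade of plasma proteins, most of which are made by hepatocytes. C3 is the protein on which the activation routes meet, and factor B, the product of Cfb, joins activated C3 to form the convertase of the alternative pathway. Factor I, the product of Cfi, is a protease that cuts activated C3 and C4 and so switches the cascade off. Hc encodes the mouse form of component C5, whose cleavage starts the terminal pathway, and C6, the 3 chains of C8 (from C8a, C8b and C8g) and C9 then build the pore known as the membrane attack complex.

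The genes lie in several places of the GRCm38 (mm10) genome. In the GENCODE annotation C8b (chromosome 4, 104766317 to 104804548, plus strand) and C8a (104815679 to 104876398, minus strand) are neighbours that point toward each other, with 11130 bases between them. C6 (4727175 to 4814967) and C9 (6445327 to 6498751) are both on the plus strand of chromosome 15. C8g (25498651 to 25501719) and Hc (34983331 to 35061438) are on the minus strand of chromosome 2. C3 (57203970 to 57228136) and Cfb (34856374 to 34862518) are on the minus strand of chromosome 17, and Cfi is on the plus strand of chromosome 3 (129835884 to 129875332). All 9 are annotated as protein-coding genes.

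The 250 bases before the start of transcription are shown for the neighbours C8a and C8b, for C9, which had the largest fold change of the 9 in females at 5 mg/kg, and for C3, whose most counted probe was not called in either sex. They come from RefSeq on GRCm38.p6, which held an entry for 7 of the 9 genes, with none for Cfb and Cfi. The C9 window ends at 6445345, past the GENCODE gene start at 6445327, so its last bases lie within that gene. The windows of C6 and Hc, not shown, also reach into the GENCODE gene. The sequences are written 5′ to 3′ on the gene's own strand, and capitals mark matches on either strand to 5 short motifs known from liver promoters: GTTAAT (part of the HNF1 site), CAAAGT (HNF4), AGGTCA (nuclear receptors), TTGCNNAA (C/EBP) and TATAAA (the TATA box).
C8a, chr4:104876399-104876648, - strand: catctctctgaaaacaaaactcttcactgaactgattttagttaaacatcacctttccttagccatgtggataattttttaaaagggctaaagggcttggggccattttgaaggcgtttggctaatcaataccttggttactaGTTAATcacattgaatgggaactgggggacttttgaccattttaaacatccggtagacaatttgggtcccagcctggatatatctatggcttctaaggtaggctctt
C8b, chr4:104766067-104766316, + strand: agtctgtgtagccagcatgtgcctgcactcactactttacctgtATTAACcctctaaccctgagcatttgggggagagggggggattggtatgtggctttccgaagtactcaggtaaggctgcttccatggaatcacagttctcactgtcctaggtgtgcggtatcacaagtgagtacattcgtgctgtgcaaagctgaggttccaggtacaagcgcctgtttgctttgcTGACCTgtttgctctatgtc
C9, chr15:6445096-6445345, + strand: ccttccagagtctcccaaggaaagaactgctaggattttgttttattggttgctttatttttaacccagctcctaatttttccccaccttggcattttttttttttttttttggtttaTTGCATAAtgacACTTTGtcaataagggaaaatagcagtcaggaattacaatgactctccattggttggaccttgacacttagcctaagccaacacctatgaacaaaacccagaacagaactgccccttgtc
C3, chr17:57228137-57228386, - strand: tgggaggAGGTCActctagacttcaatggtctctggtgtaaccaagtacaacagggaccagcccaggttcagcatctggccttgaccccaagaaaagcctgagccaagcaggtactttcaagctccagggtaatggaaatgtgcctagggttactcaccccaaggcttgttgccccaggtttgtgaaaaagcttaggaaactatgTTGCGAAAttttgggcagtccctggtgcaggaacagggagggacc
GTTAAT was found in 3 of the 7 genes (C8a, C8b and Hc), against 6.43% of all 32851 promoter windows of this length. TTGCNNAA was found in C3 and C9, against 9.56% of all windows. AGGTCA was found in 3 genes (C3, C6 and C8b), against 14% of all windows, CAAAGT in C9 alone, against 12.6%, and TATAAA in Hc alone, against 12.4%. C8g had none of the 5 motifs, and no 2 matches overlapped in the windows shown. These are matches of letters and not measured binding sites.

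The 39 libraries held 10341341 to 15562253 reads, and a female of the 0.5 mg/kg group (mouse 355) was left out for its low total of 6711981 reads. The nonzero counts of a library had a peak at 20.8 to 49.8 reads, which is taken here as the number of reads that 1 captured molecule gave. In the 5 males given 5 mg/kg this number was 20.8 to 28.4, below all 5 male controls at 35.8 to 41, while in females the range at 5 mg/kg (32.3 to 41.1) lay within that of the controls (24 to 49.8). With counts in molecules, 7 of the 9 genes were called lower in males at 5 mg/kg (C6, C8a, C8b, C8g, C9, Cfb and Cfi). The share of all probes called lower in that fit was not counted, so the count has no background beside it. That fit still scales each library. Before scaling, median molecules in male controls and at 5 mg/kg were 144 and 83.9 for C8a, 52.5 and 36.6 for C8b. They were 127 and 69.1 for C8g, 304 and 197 for C9, and 94 and 85.9 for C6. For Cfi they were 68.7 and 70.7, and for Cfb 301 and 507. For C3 and Hc, which were not called lower, they were 520 and 1450, and 55.3 and 100. The part of the difference in reads per molecule in the results in males was not tested further. The exposure marker Ehhadh, a target of the receptor PPARα, was at 139 to 257 CPM (normalized counts as a share of the library) in male controls and 8124 to 12884 CPM in males at 5 mg/kg. In females it was at 172 to 282 CPM in controls and 5792 to 9511 CPM at 5 mg/kg.

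At 5 mg/kg in males, the genes for the 3 chains of C8 and for C9 changed most among the 9. C8a, C8b, C8g and C9 fell by 63.9% to 66.6%, Cfi fell by 45%, C6 fell by 44% and Cfb fell by 20.5%. These are 7 of the 9 genes called lower at a false discovery rate of 10%, and none was called higher. Of all 17877 probes tested, 3.45% were called lower in this comparison. In 6 of the 9 genes (all those called but C6) every treated mouse lay below every control, which held for 3.19% of all probes. The median log2 fold change was −0.86 over the 9 genes and 0.10 over all probes, a shift of all probes that was 0.03 with the size factors of DESeq2.

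**Figure D1:**
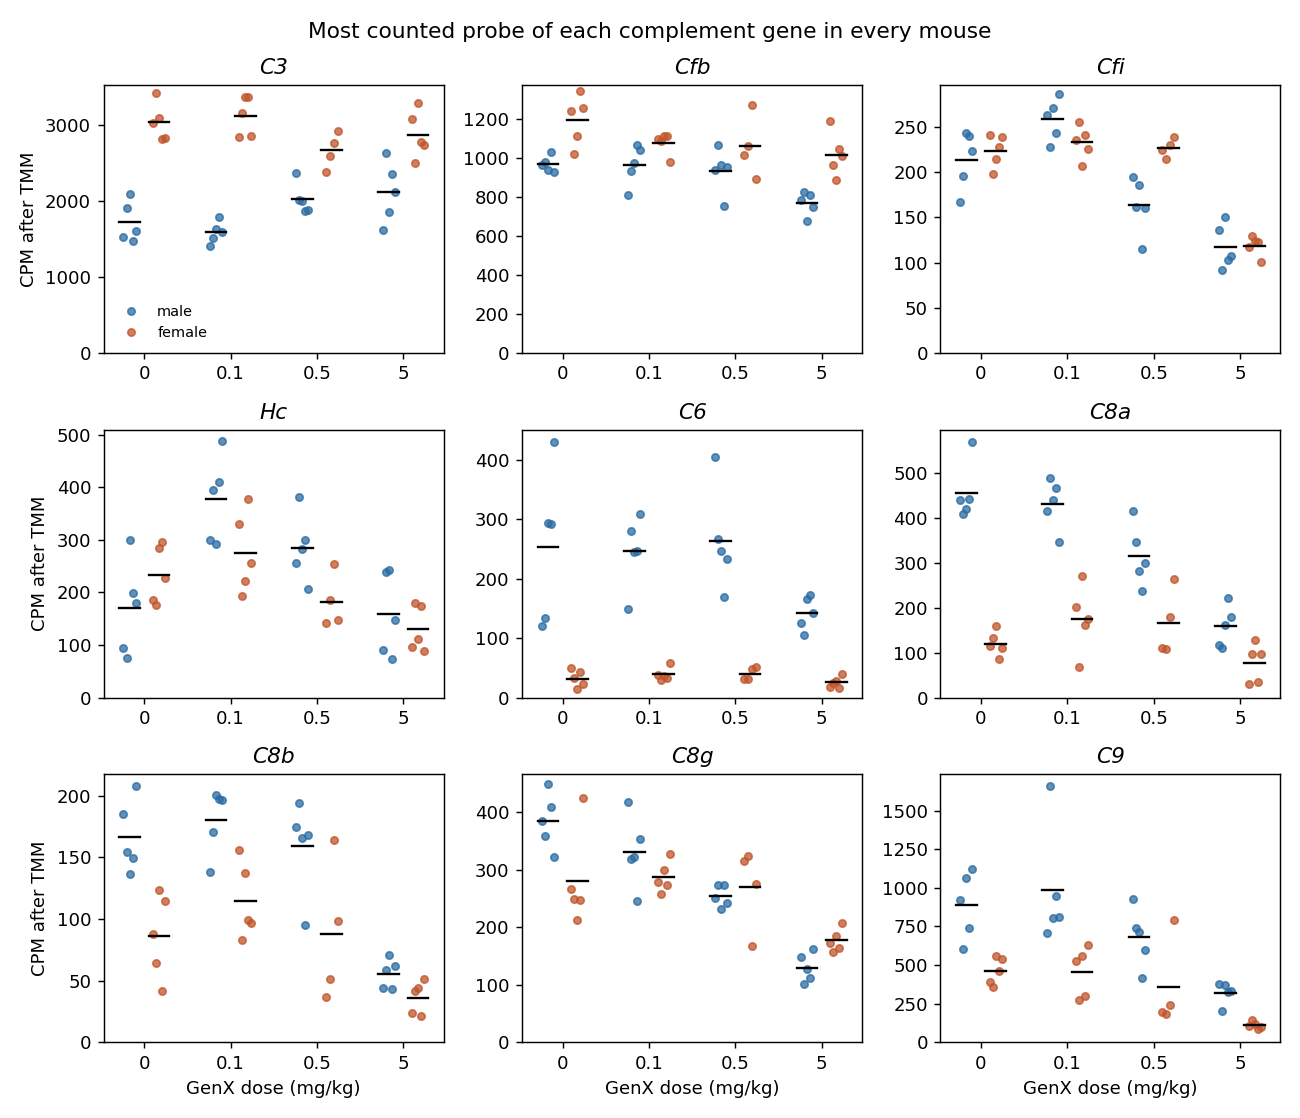
Level of each complement gene (CPM after TMM normalization, most counted probe) in each of 39 mice against the GenX dose in mg/kg, with males in blue, females in orange and the group mean as a black bar. C8a, C8b, C8g, C9 and Cfi of males at 5 mg/kg lie below all male controls, and C6 of females lies between 13.8 and 57.7 CPM at every dose.

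C8g encodes the gamma chain of C8, a small lipocalin-like protein, and was the member with the smallest adjusted p in males. Its levels in male controls were 384, 358, 448, 408 and 323 CPM in mice 101 to 105. In males at 5 mg/kg they were 148, 101, 127, 111 and 161 CPM in mice 401 to 405. The highest treated mouse therefore stood at 161 CPM against 323 CPM for the lowest control. The log2 fold change was −1.57 ± 0.17 (SE, n = 5 and 5), with an adjusted p of 1.06e-09 in edgeR's quasi-likelihood test.

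C8b and C8a encode the beta and alpha chains, which belong to the same family of pore-forming proteins as C6 and C9. The C8b probe gave 185, 154, 137, 149 and 208 CPM in male controls and 44.1, 58.5, 70.7, 43.0 and 62.0 CPM at 5 mg/kg, which is −1.58 ± 0.28 on the log2 scale (adjusted p = 5.86e-05). The C8a probe gave 439, 408, 419, 442 and 569 CPM in male controls and 118, 111, 162, 223 and 178 CPM at 5 mg/kg, which is −1.52 ± 0.29 on that scale (adjusted p = 0.000127). Both genes were thus separated without overlap, and control mouse 105 was the highest of its group for each. The second C8a probe, which carries 12.9% of the gene's reads, did not follow: it averaged 27.7 ± 3.78 CPM (SD, n = 5) in controls and 39.6 ± 12.7 CPM (n = 5) at 5 mg/kg, and its log2 fold change of 0.51 (95% interval −0.15 to 1.18) was not called. The second C8b probe fell by 61.1% (adjusted p = 0.00936).

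C9 is the subunit that polymerizes to line the pore. Its levels were 922, 605, 1064, 741 and 1123 CPM in male controls. At 5 mg/kg they were 379, 199.9, 372, 327 and 332 CPM, all below the lowest control, with mouse 402 lowest. C9 thus had a log2 fold change of −1.47 ± 0.28 (adjusted p = 0.000145). The second C9 probe, with 21% of the gene's reads, had a log2 fold change of −0.65 ± 0.29, which did not pass (adjusted p = 0.182). The third (−1.48) and the fourth (−2.27) were not called either. The fourth holds 0.288% of the gene's reads. Its median of 16 reads lies below the lowest estimate for 1 captured molecule, 20.8 reads.

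C6 binds C5b and starts the assembly. It varied more than the others among male controls, at 120, 134, 293, 292 and 429 CPM, and ran from 105 to 172 CPM at 5 mg/kg. The groups overlapped because mice 101 and 102 of the controls were as low as the treated mice. The difference was −0.84 ± 0.29 on the log2 scale (adjusted p = 0.0726). This call was lost on leaving out any of mice 103, 104, 105, 401, 402 or 405, with an adjusted p of up to 0.273.

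Cfi, the inhibitory protease, fell by 0.86 ± 0.14 on the log2 scale (adjusted p = 2.04e-05). Its levels were 167, 196, 243, 241 and 223 CPM in male controls and 136, 91.2, 151, 102 and 108 CPM at 5 mg/kg, without overlap. The alternative pathway component Cfb changed less, from 927 to 1032 CPM in controls to 675 to 828 CPM at 5 mg/kg. Its log2 fold change was −0.33 ± 0.11 (adjusted p = 0.066), and the call was lost on leaving out any of mice 101, 102, 104, 403 or 405, with an adjusted p of up to 0.184. The second Cfb probe had a log2 fold change of −0.29 ± 0.18, which did not pass (adjusted p = 0.407).

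C3 and Hc were not called in males on the most counted probe, and their probes differed. The main C3 probe, which holds 79.7% of the reads of the gene, averaged 1725 ± 267 CPM in controls and 2113 ± 399 CPM at 5 mg/kg, for a log2 ratio of 0.29 ± 0.11 (adjusted p = 0.137). The third C3 probe, with 5.45% of the reads, fell by 0.73 ± 0.17 on the log2 scale (adjusted p = 0.00201), and the second stood between, at −0.21 ± 0.15 (adjusted p = 0.506). The direction of C3 in males therefore depends on the probe. The main Hc probe gave 74.9 to 300.2 CPM in controls and 73.8 to 243 CPM at 5 mg/kg, with a log2 fold change of −0.10 ± 0.28. The second Hc probe fell by 0.92 ± 0.33 (adjusted p = 0.095).

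With all 40 libraries in the fit, 4 of the 7 calls in males were kept (C8a, C8b, C8g and C9). With no filter on low counts Cfb was not called and C3 was called higher.

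At 5 mg/kg in females, 4 of the 9 genes were called lower and none higher. C9 fell by 75.9%, C8b fell by 58%, Cfi fell by 46.9% and C8g fell by 36.6%. Of all probes, 1.83% were called lower in this comparison. C8g, C9 and Cfi showed every treated female below every control, which held for 1.49% of all probes. Log2 fold changes were below 0 for all 9 genes, with a median of −0.66 against −0.01 over all probes.

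C9 changed most in females. Its levels were 393, 354, 561, 458 and 540 CPM in control mice 151 to 155, and 107, 144, 120, 84.3 and 100.1 CPM in mice 451 to 455. The highest treated female, at 144 CPM, was thus below the lowest control, at 354 CPM. The log2 fold change was −2.06 ± 0.28 (adjusted p = 7.53e-07), and the other C9 probes that were called fell by 81.4% (the second) and fell by 86.3% (the third, adjusted p = 0.0917). The third probe holds 2.62% of the gene's reads and was near the floor, at 0 to 123 reads and a median of 0 CPM in these treated females.

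C8b in females overlapped between the groups, at 87.7, 64.4, 123, 41.6 and 114 CPM in controls and 23.6, 41.7, 43.7, 21.1 and 51.3 CPM at 5 mg/kg. Control mouse 154 was as low as the treated mice. On the log2 scale C8b changed by −1.25 ± 0.28 (adjusted p = 0.00364), and the second C8b probe fell by 67.4% with no overlap (adjusted p = 0.00356). C8g fell from 266, 249, 213, 247 and 424 CPM to 173, 158, 185, 164 and 207 CPM, a log2 fold change of −0.66 ± 0.17 (adjusted p = 0.014). Mouse 155 was the highest control for C8g, and without it the adjusted p was 0.169.

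Cfi fell from 241, 198, 214, 228 and 239 CPM in control females to 117, 130, 124, 122 and 101 CPM at 5 mg/kg. No treated female came near the controls, and the SD at 5 mg/kg was 10.9 CPM. Its log2 fold change was −0.91 ± 0.14 (adjusted p = 1.49e-05). Cfi and C8g were not called when all 40 libraries entered the fit.

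The other 5 genes were not called in females. Hc had a log2 fold change of −0.85 ± 0.28 (adjusted p = 0.114) and its second probe one of −0.94 ± 0.33 (adjusted p = 0.158). The main Hc probe was called lower with no filter, with only the groups compared, in molecules, and on leaving out mouse 152, 452 or 454, and Hc was called with its probes summed. Over the 7 alternative fits other than those that leave out a mouse, the adjusted p of Hc ran from 0.00405 to 0.322. Hc was not called with DESeq2, with its size factors in edgeR or with all 40 libraries. C8a had a log2 fold change of −0.64 ± 0.28 (adjusted p = 0.258), and its second probe one of −0.74 ± 0.33. C8a was called lower with no filter and on leaving out mouse 453. The values were −0.23 ± 0.11 for Cfb (adjusted p = 0.261) and −0.08 ± 0.11 for C3, whose 95% interval was −0.31 to 0.15. The second Cfb probe fell by 0.57 ± 0.18 on the log2 scale (adjusted p = 0.0852). C6, at 168 reads in the lowest library, had a log2 fold change of −0.32 with a 95% interval of −0.90 to 0.26.

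**Figure D2:**
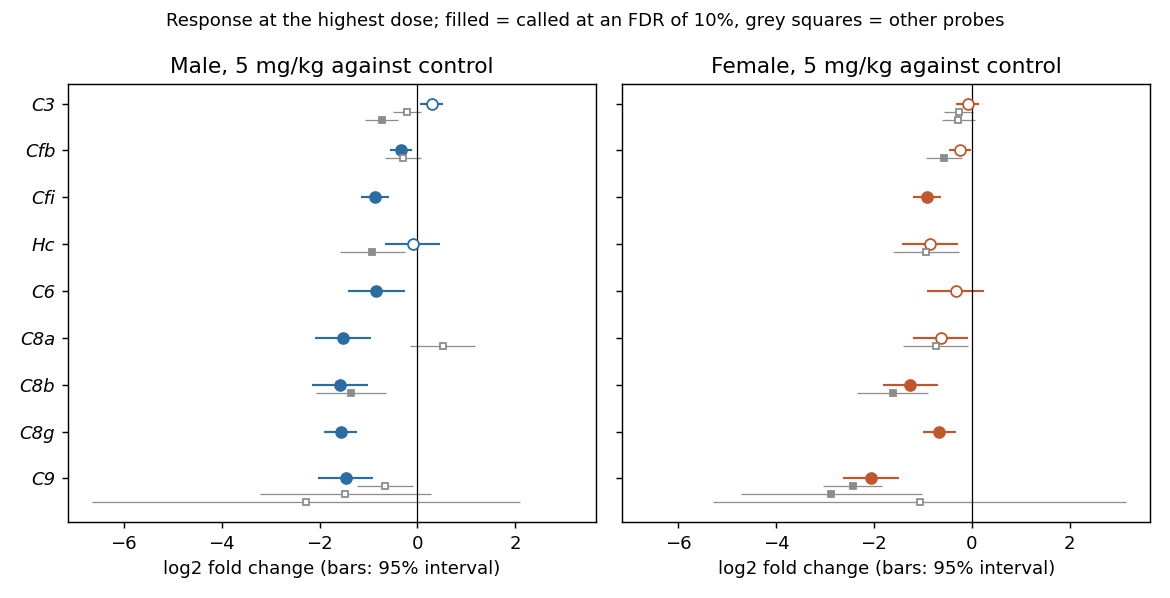
Log2 fold change at 5 mg/kg against control in males (left) and females (right), with 95% intervals as bars, for the most counted probe (circles) and the other probes of the same gene (grey squares); filled symbols were called at a false discovery rate of 10%. The circles of C8b, C8g, C9 and Cfi are filled in both sexes, and the second C8a probe lies at 0.51 in males, on the other side of 0 from its main probe.

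At 0.5 mg/kg in males, C8g alone was called lower. It was 250, 274, 231, 274 and 242 CPM in mice 301 to 305, all below the lowest control at 323 CPM, with a log2 fold change of −0.60 ± 0.17 (adjusted p = 0.051). Of all probes, 0.638% were called lower here, and the C8g call was lost on leaving out any of mice 103, 104, 301, 303 or 305. Unadjusted p values under 0.05 were found for 4 genes, with log2 fold changes of −0.60 for C8g, −0.39 for Cfi, 0.23 for C3 and 0.75 for Hc. The share of all probes under this unadjusted threshold was not counted in any comparison. Counts at that threshold are therefore not read as a result about the members. DESeq2 called both C8g and Cfi lower.

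At 0.1 mg/kg in males, 0 of the 9 genes were called by edgeR, against 0.0336% of all probes, and 1 gene (Hc) had an unadjusted p under 0.05. Hc was 93.8, 74.9, 300.2, 199 and 180 CPM in controls and 300.1, 394, 292, 411 and 489 CPM at 0.1 mg/kg. Only control mouse 103 reached the treated range. The log2 fold change was 1.15 ± 0.28 (adjusted p = 0.224), DESeq2 called it higher, and the second Hc probe had a log2 fold change of 0.65 ± 0.33 (adjusted p = 0.395).

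In females 0 of the 9 genes were called by edgeR at 0.1 mg/kg (0% of all probes) or at 0.5 mg/kg (0.213% of all probes). No gene had an unadjusted p under 0.05 at either dose (counts of 0 and 0), and DESeq2 called 0 at both. At 0.5 mg/kg C9 was 199, 184 and 243 CPM in mice 351 to 353 but 792 CPM in mouse 354. The log2 fold change of C9 was −0.38 with all 4 mice (adjusted p = 0.906) and −1.15 without mouse 354, where it was called lower.

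Read by dose, the C8g mean in males was 384, 331, 254 and 130 CPM at 0, 0.1, 0.5 and 5 mg/kg, with SDs of 47.9, 62.4, 19.2 and 25.1 CPM. The control and 0.1 mg/kg levels did not differ beyond their spread, and the levels at 0.5 and 5 mg/kg were each called lower than the control. In females C8g was 279.7, 287, 270.3 and 177 CPM in the same order, and only the level at 5 mg/kg was called. Cfi in females was 224, 233, 227 and 119 CPM, again with a difference at 5 mg/kg only. C8a in males was 455, 431, 316 and 158 CPM, where the value at 0.5 mg/kg, with a log2 fold change of −0.53 ± 0.28, was not called (adjusted p = 0.333).

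The remaining members are given by their means in the same order of dose. C9 was 891, 986, 679 and 322 CPM in males and 461, 458, 354 and 111 CPM in females, with an SD of 384 CPM in males at 0.1 mg/kg, where mouse 202 reached 1656 CPM. C8b was 167, 181, 159.5 and 55.7 CPM in males and 86.2, 115, 87.8 and 36.3 CPM in females, and in both sexes only the level at 5 mg/kg was called against the control. C6 was 254, 246, 263 and 142 CPM in males and 31.9, 38.8, 40.3 and 25.5 CPM in females. Cfi in males was 214, 259, 163 and 118 CPM, and its log2 fold change of −0.39 ± 0.14 at 0.5 mg/kg was not called (adjusted p = 0.217). Cfb was 968, 964, 936 and 769.9 CPM in males and 1196, 1080.3, 1062 and 1019 CPM in females. C3 was 1725, 1589, 2026 and 2113 CPM in males and 3039.9, 3120.1, 2667 and 2876 CPM in females, without a called difference from the control at any dose on this probe. Hc was 169.6, 377, 285 and 159 CPM in males and 234, 276, 182 and 130.3 CPM in females.

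The step from 0.5 to 5 mg/kg was tested directly. In males it lowered 5 genes (C8a, C8b, C8g, C9 and Cfi), against 1.67% of all probes, with log2 fold changes from −1.52 for C8b to −0.47 for Cfi. In females it lowered the same 5 genes, against 0.66% of all probes, from −1.67 for C9 to −0.61 for C8g. These steps use the same mice at 5 mg/kg as the comparisons with the control and are not separate evidence. Leaving out mouse 301, 302 or 402 in males reduced the count to 3, as did leaving out mouse 353, 354, 451 or 454 in females, while C8b and C8g in males and C9 and Cfi in females were called on leaving out any mouse.

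**Figure D3:**
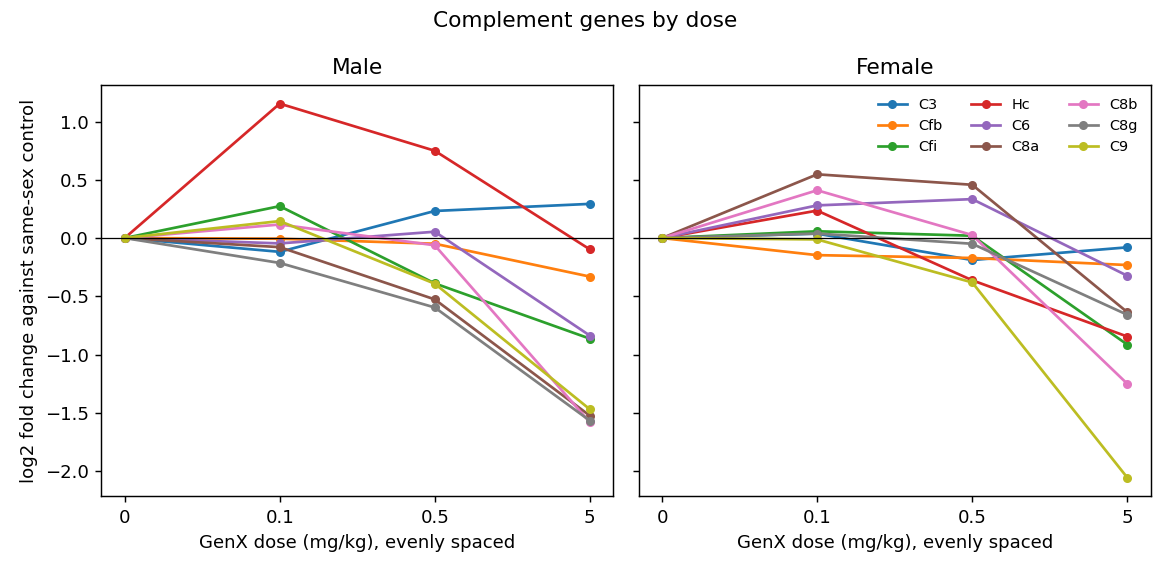
Log2 fold change against the same-sex control (vertical axis) of each complement gene at 0, 0.1, 0.5 and 5 mg/kg (horizontal axis, evenly spaced), in males (left) and females (right), for the most counted probe. The lines of C8b, C8g and C9 reach −1.58, −1.57 and −1.47 in males at 5 mg/kg, and C9 reaches −2.06 in females.

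Whether the sexes differed in their response was tested by the female response minus the male response at each dose. At 5 mg/kg only C8g was called, with a difference of 0.91 ± 0.24 on the log2 scale (95% interval 0.44 to 1.38, adjusted p = 0.0517): its log2 fold change was −1.57 for males but −0.66 for females. Of all probes, 0.459% were called higher in this term, and the median of all probes was −0.16, or −0.07 with the size factors of DESeq2. The call was lost on leaving out any of mice 103, 153, 154, 402, 404 or 455 (adjusted p of up to 0.122), and with all 40 libraries. For C9 the difference was −0.59 on the most counted probe (95% interval −1.36 to 0.19) and −1.77 ± 0.41 on the second probe, which was called (adjusted p = 0.0181). C8a differed by 0.89 (95% interval 0.09 to 1.69, adjusted p = 0.339) and by −1.25 ± 0.47 on its second probe (adjusted p = 0.198). Cfi differed by −0.05 (95% interval −0.46 to 0.36).

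At 0.1 mg/kg edgeR called 0 of the 9 differences between the sexes (0% of all probes); 1 gene, Hc, had an unadjusted p under 0.05, and DESeq2 called 0. At 0.5 mg/kg edgeR called 0 (0.274% of all probes), and DESeq2 called 0. An unadjusted p under 0.05 was found for 4 genes (C3, C8a, C8g and Hc), again with no share of all probes counted at that threshold.

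Untreated livers of the sexes differed in 5 of the 9 genes, and 3.49% of all probes were called in either direction. C6, C8a, C8b and C9 were lower in control females and C3 was higher. C6 differed most, at 49.3, 32.5, 13.8, 42.1 and 21.9 CPM in females against 120 to 429 CPM in males. This is a log2 fold change of −2.99 ± 0.31 (adjusted p = 8.52e-10), and no female at any dose exceeded 57.7 CPM. C6 has a single probe, so no second probe bears on it. In captured molecules this is 6.62 to 20.3 per control female against 38.8 to 132 per control male, by an estimate that was too high in simulated data.

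C8a, at 84.7 to 159 CPM in control females and 408 to 569 CPM in control males, had a log2 fold change of −1.92 ± 0.29 (adjusted p = 8.21e-06). Its second probe showed no such difference, at −0.00 (95% interval −0.67 to 0.66). C8b and C9 were each lower by 0.95 on the log2 scale in females (adjusted p = 0.0518 and 0.0474), without overlap. Either call was lost on leaving out some mice (101, 105, 152 or 154 for C8b; 103, 105, 151 or 152 for C9). C3 was 2817 to 3429 CPM in control females and 1477 to 2098 CPM in control males, a log2 fold change of 0.82 ± 0.12 (adjusted p = 1.98e-06), but the second and the third C3 probe had values of 0.22 ± 0.15 and 0.09 ± 0.17 and were not called. The second C9 probe, at −0.38 ± 0.28, was not called either (adjusted p = 0.671), and the second C8b probe had the same difference as the first, −0.95, without a call (adjusted p = 0.184). For C8a, C9 and C3 the call thus rests on the most counted probe.

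**Figure D4:**
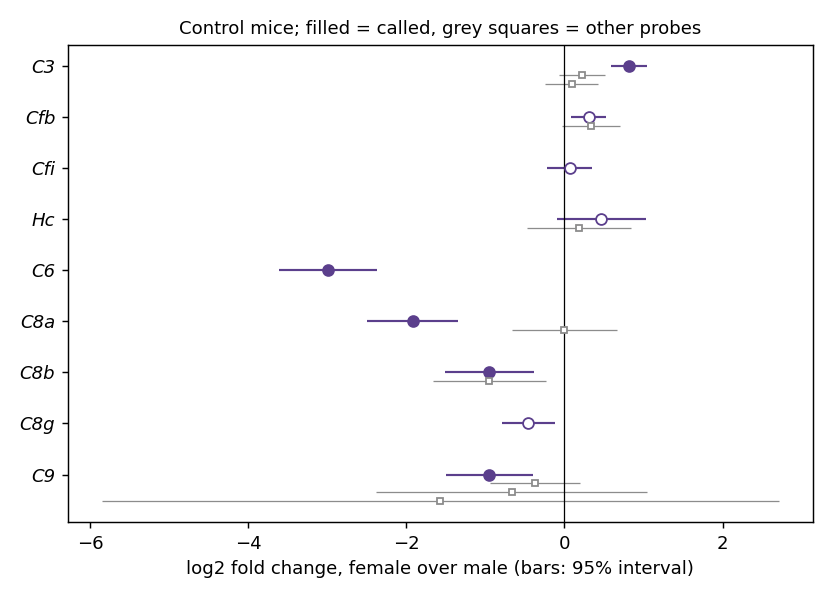
Log2 fold change of control females over control males (horizontal axis, bars are 95% intervals) for the most counted probe of each gene (circles) and its other probes (grey squares), with filled symbols for those called. C6 lies at −2.99, and the squares of C8a and C3 lie apart from their filled circles.

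Across the 9 other probes of the members, 3 were called lower at 5 mg/kg in males (C8b, the third of C3, and Hc) and 4 in females (C8b, 2 of C9, and Cfb), and 0 were called higher by edgeR. Of all probes, 3.45% were called lower in males and 1.83% in females. When all probes of a gene were summed, 7 genes were called lower in males and 5 in females, the fifth being Hc. The share of all summed genes called lower was not counted.

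Other genes of the cascade were counted in lists. Beside each list stands the share of all probes called lower at 5 mg/kg, 3.45% in males and 1.83% in females. The share called higher was not counted. Of 16 tested genes of the recognition and early steps, 8 were called lower in males at 5 mg/kg and 0 higher, with a median log2 fold change of −0.62 against 0.10 over all probes. They were the proteases C1s1 (−1.65 ± 0.24), C1rb (−1.32 ± 0.17), Masp2 (−1.16 ± 0.19), Masp1 (−1.01 ± 0.18) and C1rl (−0.80 ± 0.25), the convertase components C4b (−1.11 ± 0.22) and C2 (−0.75 ± 0.25), and the lectin Mbl1 (−0.50 ± 0.12). In females 3 of the 16 were called lower, C1s1 (−1.62 ± 0.24), C4b (−0.998 ± 0.22) and Masp1 (−0.58 ± 0.18), with a median of −0.40. The C1q genes C1qa, C1qb and C1qc, which are made by macrophages, were not called in either sex (adjusted p of 0.547 or more). C1ra and C1rb are near-identical copies, so their probes may share reads.

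Among the soluble regulators, those called lower in males at 5 mg/kg included Cpn2 (−1.33 ± 0.27), Vtn (−1.28 ± 0.13), which encodes vitronectin, and Serping1 (−1.11 ± 0.19), which encodes the C1 inhibitor. Cpn1 was called higher (0.35 ± 0.12). Those called lower in females were Cpn2 (−0.96 ± 0.26), Cpb2 (−0.74 ± 0.16), Serping1 (−0.70 ± 0.19), Cfhr2 (−0.55 ± 0.15) and Vtn (−0.41 ± 0.13). Among 12 tested membrane regulators and receptors, Cd59a, whose product blocks the membrane attack complex, was called lower in males (−1.34 ± 0.40) and C1qbp higher in females (0.71 ± 0.21). Of Cfd, Cfp and C7, 2 were tested and 0 called, with a summed level of at most 6.22 CPM in any mouse.

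For the next 2 lists the share of all probes called lower at 5 mg/kg was again 3.45% in males and 1.83% in females. Of 14 tested acute-phase genes, 3 were called lower in males at 5 mg/kg, Itih4 (−2.01 ± 0.19), Orm1 (−1.71 ± 0.23) and Crp (−1.05 ± 0.11). In females 4 were, Apcs (−1.65 ± 0.33), Itih4 (−1.18 ± 0.18), Crp (−0.89 ± 0.11) and Itih3 (−0.69 ± 0.16). Of 14 tested genes for transcription factors and cytokine receptors with known roles in hepatic complement transcription, Hnf4a (−0.80 ± 0.16), Cebpa (−0.81 ± 0.20), Stat3 (−0.79 ± 0.21) and Il1r1 (−1.32 ± 0.32) were called lower in males. In females Hnf4a (−0.56 ± 0.16), Stat3 (−0.75 ± 0.21) and Il1r1 (−1.58 ± 0.33) were called lower, and Cebpa (−0.26 ± 0.20) was not.

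Some markers of hepatocytes were called lower at 5 mg/kg and others were not called. Of all probes, 3.45% were called lower in males and 1.83% in females. Of 6 tested markers, 4 were called lower in males at 5 mg/kg (Serpina1a, Apoa1, Apob and Fgb) and 3 in females (Serpina1a, Apoa1 and Fgb), while Alb was called in neither (−0.07 ± 0.11 and −0.22 ± 0.11). Their summed level was 33235 to 39914 CPM in male controls and 19892 to 26684 CPM in males at 5 mg/kg. In females it was 25839 to 43515 CPM and 17474 to 26799 CPM. Their part in the result was not tested, and in whole liver sections fewer cells of a type cannot be told apart from less RNA per cell.

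Markers of other cell types were mostly uncalled at 5 mg/kg. Of 7 stellate cell markers, Col1a1 and Col3a1 were called higher in males. The share of all probes called higher at this dose was not counted, so this count has no background beside it. The summed level of the 7 in males was 67.3 to 133 CPM in controls and 157 to 196 CPM at 5 mg/kg. Of 6 sinusoidal endothelial markers, Clec4g was called lower in males, against 3.45% of all probes. Of 8 markers of Kupffer cells and macrophages, 7 were tested and 0 were called in either sex. Timd4 was at 0 in every male and female group. The summed levels of the 8 in males were 49.0 to 109 CPM in controls and 46.6 to 68.2 CPM at 5 mg/kg. Of 5 cholangiocyte and 7 leukocyte markers, 3 and 5 were tested and 0 were called. The neutrophil genes S100a8 and S100a9 were at 0 in all male controls. The part of these cells in the results was not tested.

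The mean of the 9 standardized log2 levels in a mouse was set against every other gene over the 39 mice, as a description of which genes moved alike over dose and sex together. The most alike of 12403 genes were Serpina1e (r = 0.911), Ces3b (r = 0.906), Serpina1d (r = 0.895), Serpina1a (r = 0.892) and Hsd3b2 (r = 0.875). The most opposed were Ucp3 (r = −0.862), Fabp3 (r = −0.832), Slc16a1 (r = −0.826), Vwa8 (r = −0.825) and Ehhadh (r = −0.818). The mice share sex and dose in these values, and the Serpina1 genes are near-identical copies whose probes may share reads.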

How the data were processed

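RNA was measured with TempO-Seq, in which pairs of DNA oligomers that bind next to each other on a transcript are ligated, amplified and sequenced. The authors scraped formalin-fixed, paraffin-embedded liver sections into lysis buffer and sequenced 1 library per mouse. Per the labels, bcl2fastq 2.17.1.14 and Bowtie were used with the mm10 build. The counts are as the authors deposited them, whole reads per probe, not normalized and not pooled. The read total of each library is the depth, and counting error alone is not the spread between mice.

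As in the methods of the study, a library with a total more than 2 SD below the mean was left out (mouse 355). Counts of the other 39 libraries were tested in R 4.3.3 with edgeR 4.0.16 (TMM normalization, filterByExpr with a count minimum of 10 and a total of 15, 1 coefficient per group, quasi-likelihood F-test). P values were adjusted by Benjamini-Hochberg over all 17877 probes, and a probe was called at a false discovery rate of 10%. The SE is the log2 fold change divided by the square root of F, and levels are CPM, counts scaled by library size and TMM factor. For the likeness of genes, log2 CPM with a prior count of 2 was used. The edgeR step and the finder of reads per molecule were tested on simulated data, where the latter gave too few reads per molecule, so that numbers of molecules can be too high. All 9 members are named on the most counted probe, with their other probes as a check, and of each list the genes called at 5 mg/kg are named, at most 8, with a result that is not reported here left out. The members and the lists were chosen with earlier results of these data known. Mice are separate animals with no shared replicate numbers. The alternatives were DESeq2 1.42.0, its size factors in edgeR, no filter, all 40 libraries, only the groups compared, counts in molecules, summed probes, the other probes and leaving out each mouse in turn.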

Additional observations from a re-analysis of the deposited data

Results flagged for a closer look

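In 4 of 72 groups of a gene, sex and dose, a single mouse stood apart from the others by Dixon's test at its 95% critical value, where chance flags about 1 in 20. For C8a in male controls, mouse 105 was highest (569 CPM, the others 408 to 442 CPM), with a gap of 0.763 of the range. For C8b in males at 0.5 mg/kg, mouse 304 was lowest (95.3 CPM, the others 166 to 194 CPM), with a gap of 0.776 of the range. For C9 in males at 5 mg/kg, mouse 402 was lowest (199.9 CPM, the others 327 to 379 CPM), with a gap of 0.767. For Cfb in females at 0.1 mg/kg, mouse 255 was lowest (980 CPM, the others 1089 to 1116 CPM), with a gap of 0.814.

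The response at 5 mg/kg differed between the sexes by the test of the difference for C8g (0.91 on the log2 scale, female minus male, adjusted p = 0.0517 in edgeR, n = 5 mice in each of 4 groups) and for the second C9 probe (−1.77, adjusted p = 0.0181). The C8g call was lost on leaving out any of 6 mice and with all 40 libraries. The most counted C9 probe was not called (−0.59, adjusted p = 0.595 in edgeR).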

How the results depend on the processing

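Of the 2259 single-gene values under the alternatives, 2117 stayed on the same side of the threshold or within 1 SD, 96 lost the call, 44 gained it and 2 that were called in either fit changed direction. These 2 were the third C3 probe (−0.73) and the second C8a probe (0.51), both in males at 5 mg/kg. Small values called in neither fit also changed sign, such as C6 in males at 0.5 mg/kg (0.05, and as low as −0.01). Counts of called members that moved by more than 1.5 times are given here with the count of the main test before the word to. With all 40 libraries they went from 1 to 0 in males at 0.5 mg/kg, from 7 to 4 in males and 4 to 2 in females at 5 mg/kg, from 1 to 0 for the sex difference in response at 5 mg/kg, from 5 to 3 between controls, and from 5 to 2 in males and 5 to 1 in females for the step from 0.5 to 5 mg/kg. With no filter they went from 0 to 1 in males at 0.1 mg/kg, from 1 to 2 in males at 0.5 mg/kg and from 0 to 1 for the sex difference in response at 0.5 mg/kg. With DESeq2 they went from 0 to 1 in males at 0.1 mg/kg and from 1 to 2 in males at 0.5 mg/kg. With only the groups compared they went from 1 to 2 in males at 0.5 mg/kg and from 5 to 2 for the step in females. In molecules they went from 1 to 2 in males at 0.5 mg/kg and from 5 to 8 for the step in males. The cause was not tested, and the share of all probes called was not counted under the alternatives. On leaving out each mouse in turn the counts ranged from 0 to 1 in males at 0.1 and at 0.5 mg/kg and in females at 0.5 mg/kg, from 5 to 7 in males and 3 to 5 in females at 5 mg/kg, from 0 to 1 for the sex difference in response at 5 mg/kg, from 3 to 6 between controls, and from 3 to 6 in males and 3 to 5 in females for the step. No paired analysis was possible because the labels number the mice individually and the groups share no number. Depth limits C6 in females, where a library at 5 mg/kg held an estimated 5.95 captured molecules.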
